A study of Mus musculus with 12 samples.

Results

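Cytochrome c oxidase, complex IV of the respiratory chain, was examined through the genes of its nuclear-encoded subunits and its assembly factors. They were taken as every gene of the deposited count table whose symbol starts with Cox and a digit, without pseudogene symbols ending in -ps, together with Surf1, Sco1 and Sco2, provided that a gene held at least 10 counts over the 12 libraries. This left 29 of the 55573 genes of the table, and the rule used no comparison between genotypes. The members comprised 10 ubiquitous subunits, 5 tissue-specific isoforms, 12 assembly factors, Cox7a2l and the processed pseudogene Cox6c2. Cox6c2, with 33 counts in all, was the 1 member too low to be tested, so that 28 were tested. A further 3 symbols fit the naming rule but fell short of the minimum, namely Cox20b and Cox8c with 3 counts each and Cox7b2 with 0.

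The RNA came from cultured adipocytes grown out of the stromal vascular fraction (SVF) of mouse subcutaneous fat, the mixed cells that remain once the fat cells have been removed from digested tissue. The donors were C57BL/6 mice that carried on both alleles either the wild-type form of PPARγ (WT), T166A (TA) or T166D (TD), with 4 libraries of each genotype. PPARγ is the nuclear receptor that drives adipocyte differentiation. In TA the phosphorylatable threonine at this site in its DNA-binding domain is replaced by alanine, and in TD by aspartate, which mimics the phosphorylated state. The alleles were made by CRISPR-Cas9 in the zygote, so each cell of the culture carries them, and the WT mice were littermates from crosses of heterozygotes. All 3 genotypes had the same medium, with 850 nM insulin, 1 nM triiodothyronine, 0.5 mM IBMX, 125 nM indomethacin and dexamethasone for the first 4 days, then insulin and triiodothyronine alone, and were harvested on day 8. The labels give neither the sex and age of the donors nor whether replicates are separate mice or cultures. The p-values therefore measure the spread between these libraries, which may be technical.

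Cytochrome c oxidase takes electrons from cytochrome c and passes them to oxygen, and it pumps protons across the inner mitochondrial membrane as it does so. Its catalytic core is made of subunits encoded by mitochondrial DNA, which carry the heme A and copper centers, and nuclear-encoded subunits surround that core. Several nuclear subunits come in paralogs, with a form found in most tissues and another form that is typical of heart, skeletal muscle and brown fat (Cox7a1, Cox8b, and Cox6a2 in striated muscle), of lung (Cox4i2) or of testis (Cox6b2). Cox7a1 and Cox8b are also widely used as markers of thermogenic adipocytes, brown and beige. Assembly factors make heme A, bring copper or insert and stabilize subunits, and are not part of the finished enzyme.

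The libraries held 16553324 to 20324286 counts, and those of WT were the 4 deepest. The 10 ubiquitous subunits together took 0.239% to 0.305% of all counts in WT, 0.203% to 0.273% in TA and 0.140% to 0.180% in TD. All 18 replicate pairs differed beyond sampling noise, with chi-square values of 4.89 to 37.7 for each degree of freedom. Each library was therefore kept as 1 sample. The labelled cell type was checked with 10 adipocyte markers, such as Adipoq, Plin1 and Fabp4. Their summed level was 24182 to 27184 counts per 1000000 (CPM) in WT, 22028 to 28558 in TA and 16752 to 18968 in TD. RNA of fibroblasts or preadipocytes was present as well, and their 11 markers, such as Pdgfra, Dcn and Col1a1, summed to 12014 to 16052 CPM in WT, 13209 to 23915 in TA and 20801 to 30288 in TD.

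Cox7a1 with Cox7a2 and Cox8b with Cox8a are the paralog pairs on which most of the isoform results turn, so their promoters are shown as 280 bases of the gene's strand from 250 bases before to 30 bases after the transcription start, 5′ to 3′, from RefSeq on GRCm38.p6. Cox6a1 is added as the promoter with the most matches to a motif of the respiratory chain factor NRF1. Capitals mark CpG dinucleotides.
Cox7a1, chr7:30183921-30184200, plus strand: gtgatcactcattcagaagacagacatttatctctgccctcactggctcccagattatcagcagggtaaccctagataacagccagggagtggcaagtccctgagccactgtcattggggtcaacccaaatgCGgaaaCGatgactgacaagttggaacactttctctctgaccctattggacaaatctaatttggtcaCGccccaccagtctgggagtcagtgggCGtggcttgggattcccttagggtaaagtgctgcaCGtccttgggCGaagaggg
Cox7a2, chr9:79759824-79760103, minus strand: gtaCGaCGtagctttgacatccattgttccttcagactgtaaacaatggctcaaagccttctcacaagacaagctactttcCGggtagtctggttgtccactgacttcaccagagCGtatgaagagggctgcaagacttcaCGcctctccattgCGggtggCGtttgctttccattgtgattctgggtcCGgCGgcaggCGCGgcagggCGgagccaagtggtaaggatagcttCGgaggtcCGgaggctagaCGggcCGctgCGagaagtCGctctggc
Cox8b, chr7:140900417-140900696, minus strand: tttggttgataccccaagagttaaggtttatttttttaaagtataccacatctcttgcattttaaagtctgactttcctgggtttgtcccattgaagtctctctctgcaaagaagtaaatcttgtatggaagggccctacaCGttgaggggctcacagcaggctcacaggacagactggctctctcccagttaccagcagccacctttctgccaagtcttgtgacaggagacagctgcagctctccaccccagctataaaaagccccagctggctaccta
Cox8a, chr19:7217587-7217866, minus strand: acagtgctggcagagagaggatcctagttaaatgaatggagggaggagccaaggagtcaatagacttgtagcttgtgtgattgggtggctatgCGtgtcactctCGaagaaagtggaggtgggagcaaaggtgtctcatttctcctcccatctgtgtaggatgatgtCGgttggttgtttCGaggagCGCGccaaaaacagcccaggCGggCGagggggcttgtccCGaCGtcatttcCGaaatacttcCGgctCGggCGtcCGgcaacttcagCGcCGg
Cox6a1, chr5:115348929-115349208, minus strand: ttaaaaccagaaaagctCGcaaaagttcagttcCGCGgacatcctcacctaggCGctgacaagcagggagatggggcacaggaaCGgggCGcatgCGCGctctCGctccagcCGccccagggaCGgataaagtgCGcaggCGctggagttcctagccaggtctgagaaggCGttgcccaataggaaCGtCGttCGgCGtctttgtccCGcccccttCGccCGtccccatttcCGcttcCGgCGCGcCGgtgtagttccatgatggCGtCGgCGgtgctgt

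In both pairs the promoter of the tissue-specific isoform held fewer CpG than that of its ubiquitous paralog. Cox7a1 had 6 and Cox8b 1, against 18 for Cox7a2, 17 for Cox8a and 29 for Cox6a1. RefSeq entries were found for 22 of the 29 members, which gave 23 promoters. The median was 17.5 CpG over 8 ubiquitous subunits (5 to 32), 21 over 11 promoters of assembly factors (12 to 39) and 6 over all 32851 promoters of the table. The ETS-type motif CCGGAAG, searched on both strands, was present in 10 of the 23 promoters (43.5%), among them Cox8a, Cox6a1, Cox6b1, Surf1 and Sco1, and in 8.45% of all promoters. None of the 3 tissue-specific isoforms with an entry held it. The NRF1 motif GCGCANGCG stood in 1 of the 23 promoters (4.35%), that of Cox6a1, with 3 matches, some of which overlap, and in 6.00% of all promoters. TATAAA was found in Cox8b, 4 bases after the start, and in Cox10, which is 8.70% of the promoters against 13.1% of all. The motif AAGGTCA of estrogen-related receptors was found in none of the members' windows and in 4.46% of all, and AANATGGC of YY1 in 8.70% against 5.22%. These are matches of letters in a short window and do not show binding.

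The study's own quantitative PCR assays targeted these same isoforms under the names Cox7a and Cox8b. Compared with the GENCODE M21 transcripts on both strands, both Cox7a primers matched Cox7a1 and no other gene, so the assay named Cox7a measures the tissue-specific isoform and not Cox7a2. The labels forward and reverse are the study's own. For Cox7a the forward primer matched the antisense strand and the reverse primer the sense strand.
Cox7a forward: cagcgtcatggtcagtctgt
Cox7a reverse: agaaaaccgtgtggcagaga
Cox8b forward: tgtggggatctcagccatagt
Cox8b reverse: agtgggctaagacccatcctg

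The ubiquitous subunits were strongly expressed in all 3 genotypes. Per kilobase of exon, Cox8a led with 684 ± 54.6 CPM (SD, n = 4) in WT, followed by Cox6a1 with 592 ± 81.2, Cox4i1 with 496 ± 80.5 and Cox6b1 with 290.5 ± 30.4. The spreads of neighbors overlap for Cox8a and Cox6a1 and for Cox6a1 and Cox4i1. Cox7b (135 ± 17.7), Cox5b (124 ± 15), Cox7a2 (96.0 ± 12.5), Cox5a (73.7 ± 8.93), Cox7c (59.7 ± 8.23) and Cox6c (55.5 ± 5.15) formed a lower tier. Among the tissue-specific isoforms Cox7a1 was the exception in level, at 75.0 ± 13.2 CPM per kilobase, within the range of the ubiquitous subunits. Cox8b reached 12.8 ± 2.80, Cox4i2 8.10 ± 1.9, Cox6a2 1.83 ± 0.436 and Cox6b2 1.08 ± 0.295. The assembly factors lay between 97.7 ± 7.61 for Cox14 and 1.85 ± 0.392 for Sco2, and Cox7a2l at 117 ± 11.4. Levels per kilobase rest on the union of all annotated exons, which is longer than the usual transcript for genes such as Cox17 and Cox6c, and reads shared with processed copies elsewhere in the genome may be missing from the counts, so the order between genes is approximate.

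TD against WT asks what the phosphomimetic residue does to these genes. All 10 ubiquitous subunits were lower in TD. Of the 28 tested members 18 were called lower (64.3%) and 0 higher, by edgeR's quasi-likelihood test at an adjusted p under 0.05, while over all 15117 genes tested 29.2% were called, 15.1% higher and 14.2% lower. At an unadjusted p under 0.05, and by DESeq2, 0 members were higher as well. The median log2 fold change of the ubiquitous subunits was −0.79, with a range of −1.07 to −0.57, and that of all genes was 0.01. In bulk RNA, fewer cells of a type and less RNA per cell cannot be told apart.

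Cox5b, a zinc-binding subunit on the matrix side, had the largest fall of the ubiquitous group. Cox5b read 231, 182, 178 and 198 CPM in WT libraries 1 to 4, 170.2, 207, 148 and 192 in TA and 108, 99.6, 89.8 and 78.9 in TD. It fell by 1.07 ± 0.12 on the log2 scale (SE, adjusted p = 5.67e-05), which is a decrease by 52.4%. No TD library reached the lowest WT library. TA libraries 2 and 4 lay within the WT range, and TA libraries 1 and 3 lay below it and above each TD library.

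Cox6a1 read 488, 381, 360.0 and 432 CPM in WT libraries 1 to 4, 349, 446, 289 and 403 in TA and 241, 224, 209 and 194 in TD. This paralog is the non-muscle form of subunit VIa, and its fall in TD was 0.94 ± 0.12 on the log2 scale. Cox8a read 460.5, 424, 379 and 430.4 CPM in WT libraries 1 to 4, 379.9, 479, 306 and 408 in TA and 278, 257, 216 and 207 in TD. Cox8a, the widespread form of the small subunit VIII, fell by 0.82 ± 0.12. Each TD library was below each WT and each TA library for both genes.

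Cox4i1 read 941, 680.1, 674 and 782 CPM in WT libraries 1 to 4, 665, 780.1, 545 and 765 in TA and 517, 509.7, 444 and 428 in TD. Cox4i1 encodes the common form of subunit IV, a site of allosteric control of the enzyme, and fell by 0.70 ± 0.12 on the log2 scale. Cox6b1 read 236, 185, 197 and 205 CPM in WT libraries 1 to 4, 199, 221, 179.8 and 200 in TA and 143, 137, 114 and 112 in TD. Cox6b1, which faces the intermembrane space and links the monomers of the dimer, fell by 0.70 ± 0.10. Cox7a2 read 107, 84.2, 80.1 and 91.1 CPM in WT libraries 1 to 4, 79.1, 96.7, 71.6 and 93.2 in TA and 61.1, 53.2, 51.8 and 47.4 in TD. Cox7a2, the common form of subunit VIIa at the dimer interface, fell by 0.76 ± 0.11. None of these 3 genes had a TD library within the WT range.

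Cox5a read 174, 135, 143 and 167 CPM in WT libraries 1 to 4, 122, 153, 110.0 and 140.1 in TA and 98.8, 92.9, 93.7 and 80.3 in TD. Cox5a, a matrix-side subunit next to Cox4i1, fell by 0.76 ± 0.11. The remaining 3 ubiquitous subunits are small single-span membrane proteins. Cox6c fell by 0.86 ± 0.11, from 181 to 224 CPM in WT to 90.0 to 130 in TD. Cox7b fell by 0.81 ± 0.10, from 141 to 191 CPM to 84.8 to 101. Cox7c had the smallest fall, 0.57 ± 0.12 (adjusted p = 0.00284), from 61.0 to 81.4 CPM in WT to 37.3 to 53.5 in TD. The call of Cox7c was lost when TD libraries 3 and 4 were left out together (adjusted p = 0.0864), an alternative chosen after the data had been seen.

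**Figure D1:**
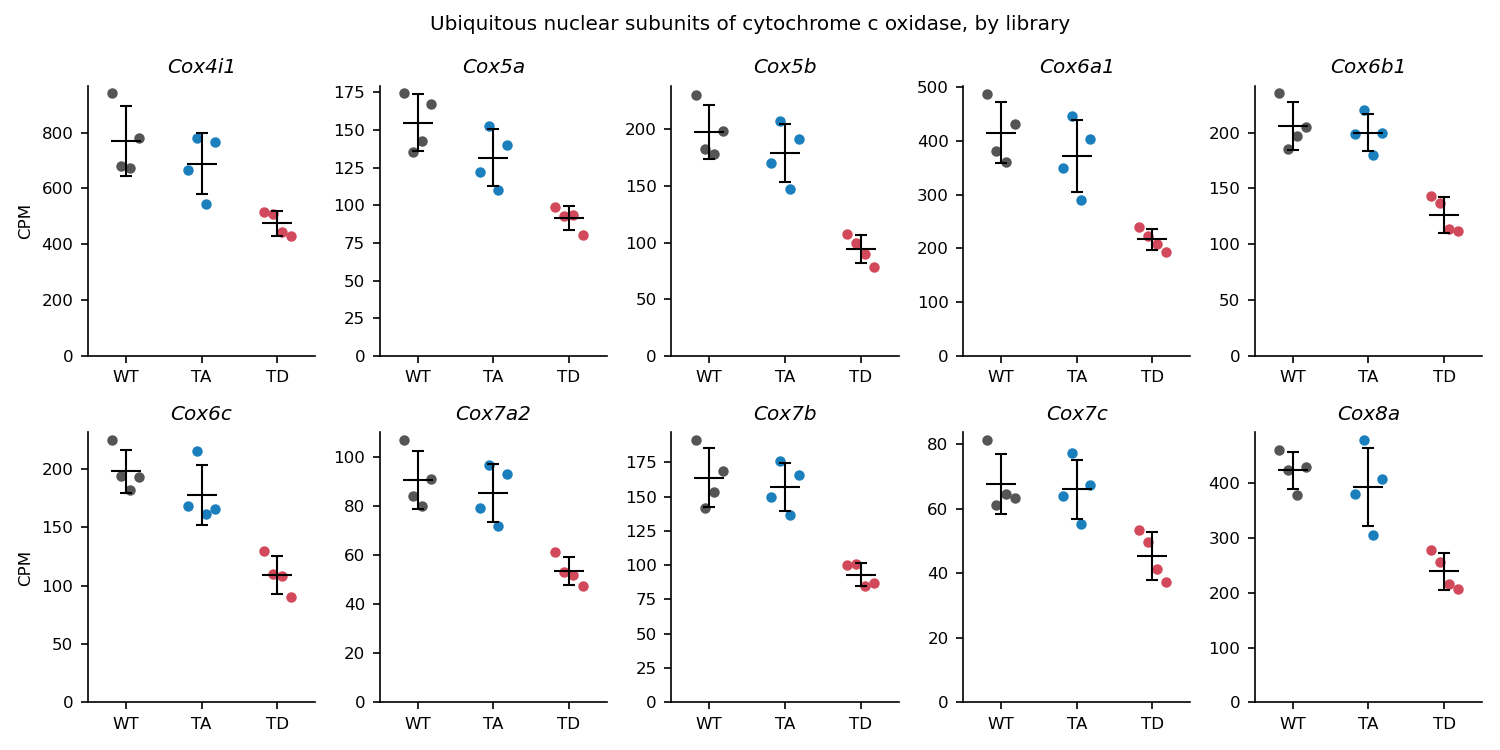
Expression of the 10 ubiquitous subunits in CPM (vertical axes, from 0) in the 4 libraries of WT, TA and TD. Points are libraries in replicate order, bars are the mean ± SD. In each panel every TD point lies below every WT point and every TA point, and the WT and TA points overlap.

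The composition of the summed subunit RNA was also compared. As a share of their summed CPM, Cox5b took 7.35% ± 0.0672 (SD, n = 4) in WT, 7.31% ± 0.0653 in TA and 6.08% ± 0.195 in TD, with no overlap between TD (5.79% to 6.22%) and WT (7.25% to 7.39%). Cox6a1 took 15.4% ± 0.373 in WT and 14.1% ± 0.311 in TD. Cox4i1 took 28.5% ± 1.09 in WT and 30.8% ± 0.704 in TD, with ranges that overlap. Cox7c took 2.52% ± 0.156 and 2.93% ± 0.168, without overlap. These shares were computed after the fold changes were known and are given without a test.

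Of the 5 tissue-specific isoforms 2 were called lower in TD (40%, against 14.2% of all genes). These were Cox7a1 and Cox8b, both typical of thermogenic fat and muscle, and the other 3 were called in no comparison. Cox7a1 read 48.3, 33.6, 34.9 and 43.8 CPM in WT libraries 1 to 4, 17.3, 29.2, 16 and 27.3 in TA and 18.1, 14.1, 10.2 and 6.92 in TD. Cox7a1 fell by 1.70 ± 0.24 on the log2 scale in TD (adjusted p = 0.000193) and so decreased by 69.3%, and the highest TD library was below the lowest WT library. Cox8b read 6.07, 3.77, 4.46 and 4.16 CPM in WT libraries 1 to 4, 5.26, 7.69, 5.62 and 7.50 in TA and 2.38, 2.43, 1.70 and 1.11 in TD. Cox8b, which is low in these cultures at a mean of 79 counts per library, fell by 1.27 ± 0.24 (adjusted p = 0.00122), again without overlap. With TD libraries 3 and 4 left out, the falls were 1.32 for Cox7a1 (adjusted p = 0.00622) and 0.94 for Cox8b (adjusted p = 0.0362). A list of 10 beige and brown markers was mixed in TD against WT. Of its 8 tested genes 3 were called lower and 1 higher, against 14.2% and 15.1% of all genes. Ucp1, at 0 to 5 counts per library, and Cidea, at 0 to 16, were too low to be tested.

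Cox4i2 read 5.4, 7.85, 7.48 and 4.82 CPM in WT libraries 1 to 4, 6.32, 4.98, 7.35 and 6.95 in TA and 6.98, 7.06, 8.20 and 5.92 in TD. Cox4i2, the lung form of subunit IV, had a log2 fold change of 0.14 ± 0.18 in TD (adjusted p = 0.602), and its libraries overlap between all genotypes. Cox6a2 read 1.35, 0.894, 1.1 and 1.59 CPM in WT libraries 1 to 4, 0.760, 1.23, 0.891 and 1.17 in TA and 0.397, 1.02, 1.65 and 0.645 in TD. Cox6a2, the form of striated muscle, and Cox6b2, the form of testis, had about 20 counts per library on average. Cox6b2 read 1.45, 1.49, 0.842 and 0.986 CPM in WT libraries 1 to 4, 0.994, 0.553, 0.668 and 1.89 in TA and 0.738, 1.13, 1.44 and 0.704 in TD. Their log2 fold changes in TD were −0.40 ± 0.38 and −0.24 ± 0.39, so that these SE were about as large as the differences or larger. Cox6a2 shares 10.3% of its exon bases with Itgad on the opposite strand, whose mean count is higher.

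Of the 12 assembly factors 6 were called lower in TD (50%, against 14.2% of all genes) and 0 higher, with a median log2 fold change of −0.45. Cox10 and Cox15 make heme A in succession, as the farnesyltransferase and the hydroxylase. Cox10 read 23.3, 18.8, 16.7 and 23.6 CPM in WT libraries 1 to 4, 18.1, 18.4, 16 and 16.6 in TA and 13.8, 15.3, 14.2 and 13.4 in TD. Cox10 fell by 0.54 ± 0.11 on the log2 scale (adjusted p = 0.00245), without overlap between TD and WT. Cox15, at 56.1 to 64.6 CPM in WT and 50.5 to 56.5 in TD, was not called (−0.16 ± 0.08, adjusted p = 0.126).

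Copper reaches the core subunits through Cox17, which hands it on to Sco1, Sco2 and Cox11, with Cox19 as a further factor of this route. Cox11 read 12, 13.3, 11.2 and 10.2 CPM in WT libraries 1 to 4, 13.7, 12.4, 11.5 and 11.3 in TA and 7.66, 7.33, 8.09 and 6.39 in TD. Cox11, which serves the copper center of the core subunit mt-Co1, fell by 0.66 ± 0.12 (adjusted p = 0.00092). In the annotation 48.4% of its exon bases overlap Tom1l1 on the opposite strand, and the strand setting of the counting is not given in the sources used here, so reads of the neighbor may be included. Cox17, the copper chaperone itself, fell by 0.60 ± 0.12, from 24.9 to 28.8 CPM in WT to 13.6 to 20 in TD. Cox19 (−0.24 ± 0.09, adjusted p = 0.0515) and Sco1 (−0.32 ± 0.12, adjusted p = 0.0507) were just outside the threshold, and both were called with DESeq2.

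Sco2 read 2.54, 1.59, 2.53 and 2.63 CPM in WT libraries 1 to 4, 1.64, 0.861, 2.39 and 1.44 in TA and 1.31, 1.67, 1.54 and 1.99 in TD. Sco2, a partner of Sco1 in copper delivery to the core subunit mt-Co2, had a log2 fold change of −0.51 ± 0.29 in TD (adjusted p = 0.202). Its 34 counts per library are uncertain, since 66.2% of its exon bases overlap Ncaph2 and 68.3% overlap Tymp. No call was made for Sco2 in any comparison.

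The other assembly factors handle membrane insertion and early intermediates. Cox14, which holds the new core subunit mt-Co1 in its first assembly intermediate, fell by 0.53 ± 0.09 on the log2 scale, from 63.2 to 76.5 CPM in WT to 44.0 to 54.5 in TD. Cox16 fell by 0.38 ± 0.13 (adjusted p = 0.0384) and Surf1, the factor most often mutated in Leigh syndrome with cytochrome c oxidase deficiency, by 0.29 ± 0.09 (adjusted p = 0.0288). Both calls were fragile. That of Cox16 was lost without WT library 1, 2 or 4 or TD library 2, 3 or 4, and that of Surf1 without WT library 1, 3 or 4 or TD library 3 or 4, and both with scaling to library totals. Cox16 also shares 56.8% of its exon bases with the readthrough model Gm20498 on the same strand.

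Cox18 read 19.3, 15, 13.0 and 18.4 CPM in WT libraries 1 to 4, 12.4, 13.3, 10.2 and 11.8 in TA and 13.5, 13.3, 16.3 and 11.4 in TD. Cox18, an insertase for the core subunit mt-Co2, had a log2 fold change of −0.27 ± 0.14 in TD (adjusted p = 0.167). Cox20 read 5.66, 0.348, 0.595 and 0.219 CPM in WT libraries 1 to 4, 5.56, 0.553, 0.223 and 2.72 in TA and 0.0568, 0.970, 0.266 and 0.117 in TD. Cox20, a chaperone of mt-Co2, gave erratic values that differed widely between replicates of the same genotype, and 91.0% of its exon bases overlap Hnrnpu on the opposite strand. Its log2 fold changes in TD, of −2.23 ± 1.10 against WT and −2.64 ± 1.09 against TA, were not called (adjusted p = 0.142 and 0.109) and are uncertain. Cox20 was called lower in both when no filter on low counts was applied (adjusted p = 8.55e-07 and 4.36e-09), and against TA also without TA library 3 (adjusted p = 0.0433), while DESeq2 called it in neither. Cox7a2l, a paralog of the VIIa subunits, is the most abundant member that was called in no comparison. Cox7a2l read 194, 153, 176 and 169 CPM in WT libraries 1 to 4, 152, 167, 158 and 184 in TA and 159, 162, 139 and 134 in TD. Its log2 fold change in TD was −0.22 ± 0.09 (adjusted p = 0.0784), and the TD libraries 1 and 2 lay within the WT range. Without WT library 2 Cox7a2l was called lower in TD (adjusted p = 0.0361).

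**Figure D2:**
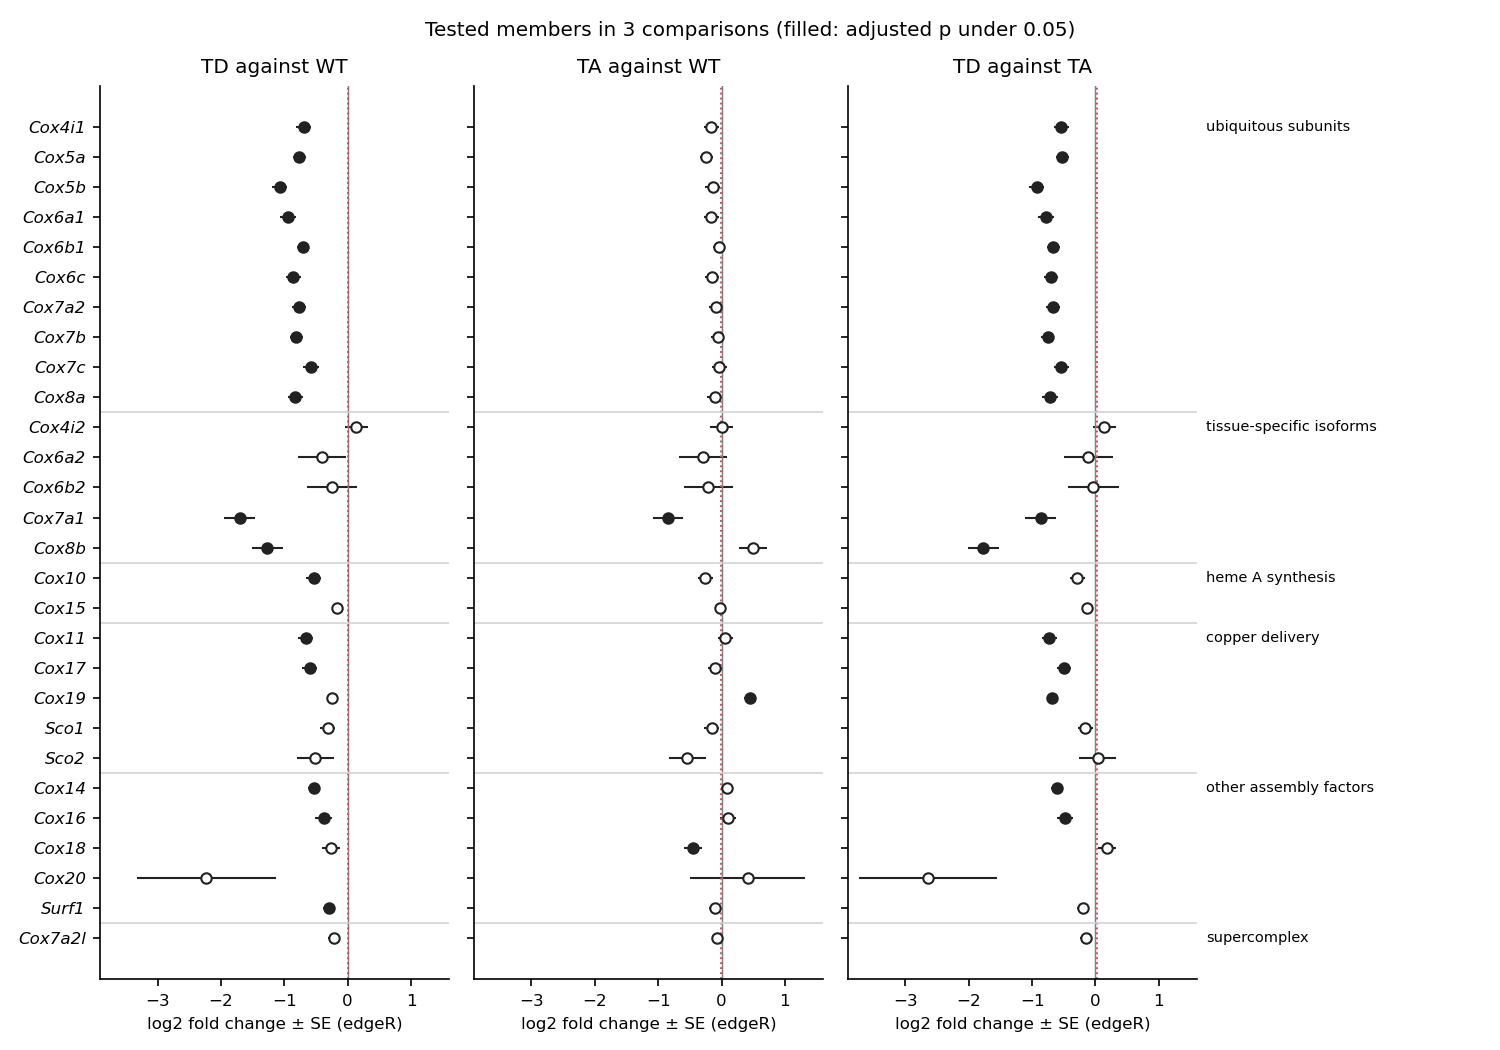
Log2 fold change ± SE from edgeR (horizontal axes) of the 28 tested members, grouped by role, in the 3 comparisons. Filled circles have an adjusted p under 0.05, the grey line marks 0 and the dotted line the median of all genes. The ubiquitous subunits sit to the left of 0 against both WT and TA in TD and near 0 in TA, and Cox8b lies to the right of 0 in TA and to the left of it in TD.

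Marker RNA of several cell types also differed between TD and WT. All 10 adipocyte markers were called lower in TD, with a median log2 fold change of −0.50, and 9 of 11 fibroblast and preadipocyte markers were called higher, with a median of 0.95. Over all genes 14.2% were called lower and 15.1% higher. Skeletal muscle markers were called higher for 21 of 23 tested genes, and the list's 30 genes summed to 17.1 to 38.5 CPM in WT, 43.8 to 143 in TA and 37.8, 134, 492 and 294 in TD libraries 1 to 4. TD library 1 was within the WT range for muscle markers, and its ubiquitous subunits (1730 CPM in sum) were below each WT library (2409 to 3134). The same library was outside the WT range for adipocyte markers (18968 CPM against 24182 to 27184). It was also outside for fibroblast and preadipocyte markers (20801 CPM against 12014 to 16052). Of the muscle genes, Myod1 had 0 counts in WT and 0, 0, 5 and 12 in TD, and Pygm 0 in each library. Mb went the other way, with a log2 fold change of −1.42 that was not called. Macrophage markers overlapped between TD and WT, with 1 of 10 called higher (10%), no more than the 15.1% of all genes. Endothelial markers summed to 109 to 139 CPM in TD against 28.3 to 60.7 in WT. The part of these other cells in the fall of the cytochrome c oxidase genes was not tested.

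Relative to the adipocyte markers of the same library the difference was smaller. These markers include Pparg, the mutated gene itself. Fewer adipocytes and less marker RNA in each adipocyte cannot be told apart, so the ratio is not a measure of culture content. For each 100 CPM of adipocyte markers, the ubiquitous subunits summed to 10.5 ± 0.724 CPM (SD, n = 4) in WT, 9.60 ± 0.383 in TA and 8.5 ± 0.482 in TD. All TD libraries (8.12 to 9.12) stayed below those of WT (9.96 to 11.5), and TD library 1 was above TA library 3 (9.09). When the libraries were scaled to the adipocyte markers in the edgeR fit, an alternative chosen after the data had been seen, the median of all genes in TD against WT moved to 0.51 and that of the ubiquitous subunits to −0.29. In that fit 10 members were called lower, namely 8 ubiquitous subunits, Cox7a1 and Cox8b. Cox4i1 (adjusted p = 0.0591) and Cox7c (adjusted p = 0.486) were no longer called, and 5 members were called higher (Cox4i2, Cox15, Cox19, Surf1 and Cox7a2l). Over all 15117 genes 10197 were called in that fit, 231 of them lower and the rest higher. As most genes were called higher, the 5 higher calls do not set these members apart.

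**Figure D3:**
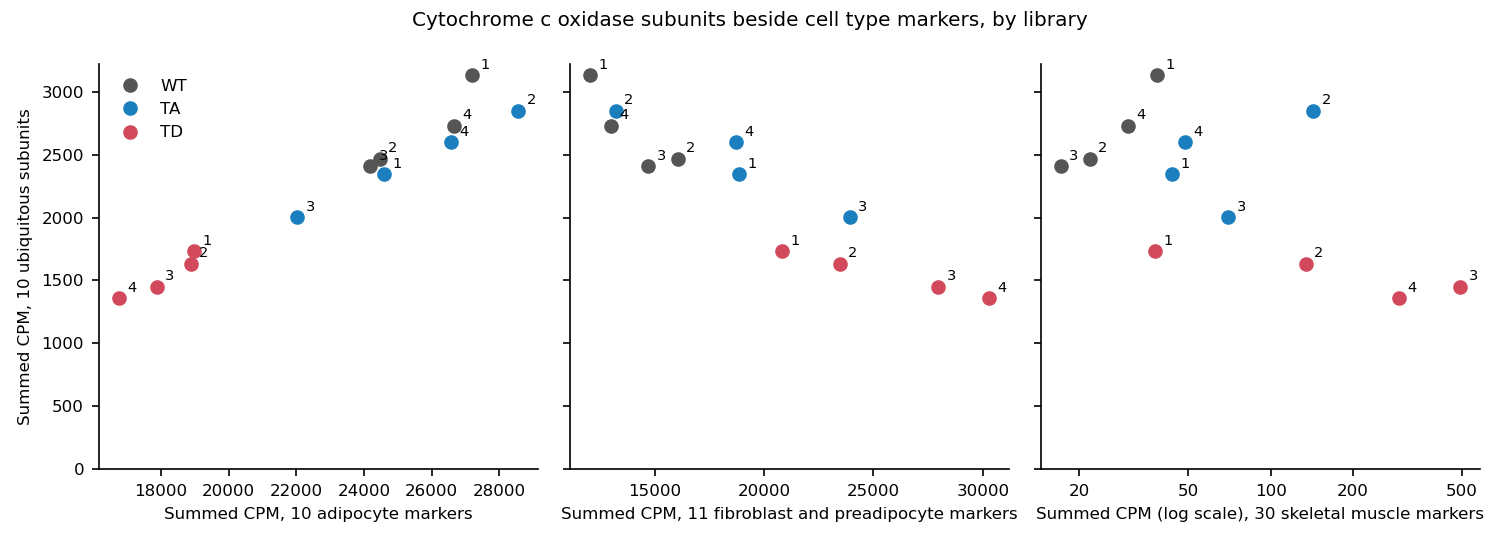
Summed CPM of the 10 ubiquitous subunits (vertical axis, from 0) against the summed CPM of adipocyte, fibroblast and preadipocyte, and skeletal muscle markers (horizontal axes, not from 0, the third on a log scale) in the 12 libraries, numbered by replicate. Within each genotype the library with more adipocyte marker RNA also has the higher subunit sum. TD 1 lies within the WT range for muscle markers and outside it for the subunit sum and the other marker lists shown.

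TA against WT asks what the loss of the phosphorylation site does. It left the ubiquitous subunits near the WT level, and 3 of the 28 members were called (10.7%), 1 higher and 2 lower. This is close to the share of all genes called in that comparison, 11.1% (6.72% higher and 4.41% lower), and so is no result about the members as a group. Of the ubiquitous subunits 0 were called by edgeR or by DESeq2, and 1 (Cox5a) had an unadjusted p under 0.05, with a median log2 fold change of −0.12 and a range of −0.24 (Cox5a) to −0.04 (Cox7c), and the TA and WT libraries overlap for each of them.

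Cox19 was the member that rose in TA. Cox19 read 34.1, 33.6, 28.0 and 32.2 CPM in WT libraries 1 to 4, 41.8, 45.8, 39.5 and 46.7 in TA and 29.1, 28.7, 26.1 and 24.3 in TD. It rose by 0.44 ± 0.09 on the log2 scale (adjusted p = 0.00363), and each TA library was above each WT library. The call held in each of the 16 alternative fits, with adjusted p-values of 0.000236 to 0.0161. Cox18 fell by 0.46 ± 0.14 (adjusted p = 0.0484), yet TA library 2 (13.3 CPM) was above WT library 3 (13.0 CPM). Its call was lost in 9 of those 16 fits.

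Cox7a1 fell in TA as well, by 0.84 ± 0.23 on the log2 scale (adjusted p = 0.0282), from 33.6 to 48.3 CPM in WT to 16 to 29.2 in TA, without overlap. The call was lost without WT library 1 (adjusted p = 0.0905), WT library 4 (0.0691), TA library 1 (0.0919) or TA library 3 (0.0729). Cox8b, the other isoform typical of thermogenic fat and muscle, had a log2 fold change of 0.50 ± 0.22 in TA (adjusted p = 0.175), and WT library 1 lay above TA libraries 1 and 3. Of Cox7a1 and Cox8b, Cox7a1 alone was thus called in TA. The 8 tested beige and brown markers split as well, with 4 called higher and 2 lower, against 6.72% and 4.41% of all genes. Their largest rise was that of Otop1 and their largest fall that of Dio2. In TA 9 of 23 tested skeletal muscle markers were called higher, as were 7 of 11 fibroblast and preadipocyte markers. So were 4 of 8 endothelial markers, against 6.72% of all genes, and 0 genes of these lists were called lower. Of the adipocyte and macrophage markers 0 were called. The part of other cells in the values of Cox7a1 and Cox8b in TA was not tested. Cox10 (−0.25 ± 0.11), Sco2 (−0.54 ± 0.29) and Cox20 (0.41 ± 0.91) were not called.

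TD against TA sets the mimic against the loss of the site, and shares its libraries with the other comparisons. Here 17 members were called lower (60.7%) and 0 higher (also 0 by DESeq2 and at an unadjusted p under 0.05), against 16.7% of all genes (7.33% higher and 9.37% lower). The 10 ubiquitous subunits were all called lower in TD, from −0.93 ± 0.12 (Cox5b, adjusted p = 7.79e-05) to −0.52 ± 0.11 (Cox5a) on the log2 scale, with a median of −0.69. With the libraries scaled to the adipocyte markers, 7 members were called lower and 5 higher, and the median of the ubiquitous subunits was −0.20. Over all genes 10181 of 15117 were called in that fit. With TD libraries 3 and 4 left out, 11 members were called lower. That alternative no longer called Cox4i1 (adjusted p = 0.159), Cox5a (0.0757), Cox7c (0.179), Cox17 (0.126), Cox16 (0.319) and Cox7a1 (0.299).

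Cox8b had the largest fall of the called members here, by 1.77 ± 0.24 on the log2 scale (adjusted p = 0.000178). The lowest TA library (5.26 CPM) was above the highest TD library (2.43 CPM). Cox7a1 fell by 0.86 ± 0.25 (adjusted p = 0.0246), but TD library 1 (18.1 CPM) was above TA libraries 1 and 3. That call was lost without TA library 2 or 4 or TD library 3 or 4.

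Against TA, 5 of the 12 assembly factors were called lower (41.7%, against 9.37% of all genes). Cox11 fell by 0.73 ± 0.12, Cox19 by 0.68 ± 0.09, Cox14 by 0.61 ± 0.09, Cox17 by 0.50 ± 0.12 and Cox16 by 0.48 ± 0.13 on the log2 scale. Cox19 was therefore called in both comparisons that include TA and not in TD against WT. Cox10 (−0.28 ± 0.12, adjusted p = 0.102), Cox18 (0.19 ± 0.14) and Cox7a2l (−0.15 ± 0.09, adjusted p = 0.267) were not called.

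The balance between tissue-specific and ubiquitous isoforms was compared within each library as the log2 ratio of the paralogs per kilobase, so that library scaling drops out. In WT Cox7a1 stood at 79.6%, 70.4%, 77.0% and 84.9% of Cox7a2 in libraries 1 to 4. In TA it stood at 38.5%, 53.3%, 39.4% and 51.7%, and in TD at 52.2%, 46.9%, 34.7% and 25.8%. Both mutants thus lay below WT in each library and overlapped each other. The log2 ratio was lower by 1.02 in TD and by 0.78 in TA than in WT (exact two-sided permutation test, p = 0.0286 in each case, the smallest that 4 against 4 libraries allow).

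Cox8b, in contrast, stood at 2.28%, 1.54%, 2.04% and 1.67% of Cox8a in WT, at 2.40%, 2.77%, 3.17% and 3.17% in TA and at 1.49%, 1.64%, 1.38% and 0.951% in TD. Each TA library was above each WT and each TD library. The log2 ratio was 0.62 above WT in TA (exact permutation p = 0.0286), and in TD it was 1.10 below TA (exact permutation p = 0.0286). Between TD and WT the libraries overlap (difference −0.47, exact permutation p = 0.0571).

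Cox4i2 stood at 1.13% to 2.28% of Cox4i1 in WT, at 1.26% to 2.66% in TA and at 2.67% to 3.65% in TD, where Cox4i1 fell and Cox4i2 was not called. The log2 ratio in TD was 0.85 above WT and 0.67 above TA (exact permutation p = 0.0286 each). Cox6a2 relative to Cox6a1 and Cox6b2 relative to Cox6b1 overlapped between all genotypes. Over the 5 pairs and 3 comparisons 6 of 15 tests had an unadjusted p under 0.05. None passed after Benjamini-Hochberg adjustment over the 15 tests, where the lowest adjusted p was 0.0714. As a permutation test of 4 against 4 libraries cannot go below 0.0286, no pair could pass on its own, however fully its libraries separated.

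**Figure D4:**
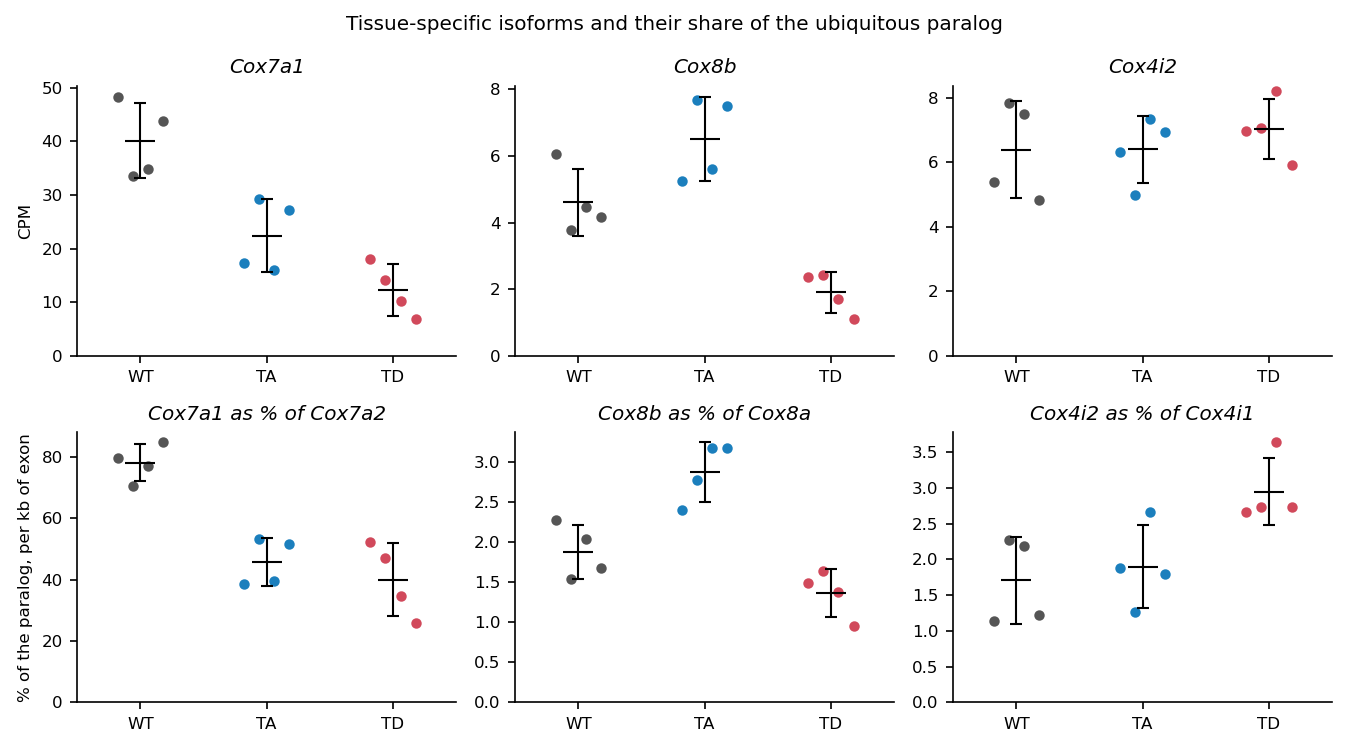
Top, CPM of Cox7a1, Cox8b and Cox4i2. Bottom, the level of each per kilobase as a percentage of its ubiquitous paralog in the same library. Points are the 4 libraries of each genotype in replicate order, bars the mean ± SD, and all axes start at 0. The Cox7a1 share lies at 70.4% to 84.9% in WT and at 25.8% to 53.3% in both mutants, while the Cox8b share is highest in TA.

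Genes that work with the enzyme but fall outside the naming rule were followed in a list of 21, of which 19 were tested. In TD against WT 12 were called lower (63.2%, against 14.2% of all genes), with a median log2 fold change of −0.33. In TD against TA 7 were called lower (36.8%, against 9.37% of all genes). In TA against WT 1 was called lower, Lrpprc. That share of 5.26% is close to the 4.41% of all genes and is no result about the list. Ndufa4, now regarded as a subunit of complex IV, was also lower in TD. Ndufa4 read 137, 128, 118 and 124 CPM in WT libraries 1 to 4, 156, 169, 140.0 and 119 in TA and 94.0, 86.7, 70.7 and 74.6 in TD. It fell by 0.64 ± 0.11 in TD against WT (adjusted p = 0.0005) and by 0.84 ± 0.11 against TA. Cycs, the somatic cytochrome c that feeds the enzyme, fell by 0.80 ± 0.18 and 0.70 ± 0.18. Cycs read 14.8, 14.9, 17.5 and 14.7 CPM in WT libraries 1 to 4, 17.0, 17.0, 15 and 8.84 in TA and 11.4, 8.79, 7.61 and 7.80 in TD. TA library 4 was within the TD range, and the other TA libraries lay above it. The largest value in the positive direction in TD against WT was that of Fdxr, a mitochondrial ferredoxin reductase, at 0.08 ± 0.11, which was not called.

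The mitochondrially encoded core genes mt-Co1, mt-Co2 and mt-Co3 were all called lower in TD against WT, by 0.81 ± 0.15, 0.77 ± 0.12 and 0.87 ± 0.15 on the log2 scale. mt-Co1 read 33205, 25535, 28319 and 31552 CPM in WT libraries 1 to 4, 22489, 23187, 17209 and 14244 in TA and 18858, 17941, 15737 and 15189 in TD. mt-Co2 read 41.4, 34.6, 36.2 and 36.8 CPM in WT libraries 1 to 4, 36.5, 42.7, 32.1 and 30.8 in TA and 24.6, 22.5, 22.9 and 17.0 in TD. In TA mt-Co1 fell by 0.62 ± 0.15 (adjusted p = 0.0121), whereas mt-Co2 (−0.07 ± 0.12) and mt-Co3 (−0.04 ± 0.14) were not called, and in TD against TA mt-Co2 and mt-Co3 but not mt-Co1 were called lower. The level of mt-Co1 was 19193 CPM per kilobase in WT and those of mt-Co2 and mt-Co3 were 54.4 and 18.3. The mouse nuclear genome holds close copies of parts of the mitochondrial genome, and how reads with several matches were counted is not given in the sources used here, so the values of mt-Co2 and mt-Co3 are uncertain.

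The other nuclear-encoded complexes of the chain gave the frame for these values in TD against WT. There 34 of 35 tested complex I subunits, 4 of 4 of complex II, 9 of 9 of complex III and 15 of 17 of ATP synthase were called lower, with median log2 fold changes of −0.70, −0.65, −0.72 and −0.56. Over all genes 14.2% were called lower in that comparison. The median of −0.79 for the ubiquitous subunits of complex IV was the lowest of these, a difference that was not tested.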

How the data were processed

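RNA-seq counts of 12 libraries, 4 each of WT, TA and TD adipocytes, were analysed. The authors deposited whole-number counts per gene, without normalization, as 1 table and as 1 file per library, and both forms were equal. The submitters' processing notes name bcl2fastq 2.17.1.14, cutadapt 1.9.1, HISAT2 2.0.1 and HTSeq 0.6.1, with the mouse build GRCm38. The strand setting and the treatment of reads with several matches are not given in the sources used here. Groups and replicate numbers were taken from the sample titles.

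Genes were filtered with edgeR's filterByExpr (minimum count 10, minimum total 15), which left 15117, and scaled by TMM (factors 0.957 to 1.04). A quasi-likelihood model (edgeR 4.0.16, R 4.3.3) was fitted to all 12 libraries and tested two-sided, with Benjamini-Hochberg adjustment over the genes tested and a threshold of 0.05. CPM are counts per 1000000 of the scaled library size. Gene positions, exon lengths and overlaps came from GENCODE M21 on GRCm38, where 55480 of 55573 identifiers (99.83%) and the 29 members were found. Isoform ratios were log2 ratios of counts per kilobase with 0.5 counts added and genotypes were compared with exact permutation tests, two-sided. The steps were tested on simulated data. Alternatives were other scalings (DESeq2 size factors, library totals), filters and tools (DESeq2 1.42.0), a block for the replicate number, leaving out each library and, chosen after seeing the data, scaling to the adipocyte markers and leaving out TD libraries 3 and 4 together.

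The members, their role groups and the marker lists were chosen with earlier results of these data known, so no list is independent evidence of its direction. Values were given for each member, per library for the tissue-specific isoforms, their ubiquitous paralogs and the member of each role group with the largest absolute log2 fold change in a comparison, and a few more members were chosen as examples after their values were seen. With 16553324 to 20324286 counts per library, precision was lowest for Cox6a2, Cox6b2, Cox20 and Sco2, which averaged 19.5 to 34 counts per library. Counting limits cover counting error only.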

Additional observations from a re-analysis of the deposited data

Results flagged for a closer look

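In 84 groups of 4 libraries, 1 for each tested member and genotype, the distance of the highest or lowest library from its nearest neighbor was compared with the range of the group. The gap was over Dixon's 95% critical value in 2 of them, and chance alone flags about 1 in 20 groups. Cox6c stood apart in TA library 2, at 215.5 CPM, with the next library at 168 CPM. Sco2 stood apart in WT library 2, at 1.59 CPM, below the next value of 2.53 CPM, and most of its exon bases overlap Ncaph2 and Tymp. Without TA library 2 Cox6c was called lower in TD against TA as before, and Sco2 was called in no comparison with or without WT library 2.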

How the results depend on the processing

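The ubiquitous subunits kept a negative log2 fold change in TD, against WT and against TA, in each alternative fit, although marker scaling and the loss of TD libraries 3 and 4 ended some calls. A required absolute log2 fold change above 1 left 795 genes and 3 members lower (TD against WT), 424 genes with 0 members higher and 0 lower (TA against WT), and 362 genes with 1 member lower (TD against TA). Scaling to the adipocyte markers, chosen after seeing the data, gave 10197, 1040 and 10181 genes, 10, 1 and 7 members lower, and 5 members higher in both TD comparisons. Of the 10197 genes called in TD against WT, 231 were lower and the rest higher. The median of the ubiquitous subunits then stood at −0.29 against WT and −0.20 against TA, while that of all genes moved to 0.51 and 0.50. Without TD replicates 3 and 4, chosen likewise, 1516 genes were called in either direction against WT and 634 against TA. Against TA 11 members were then called lower. Members called lower in TA against WT numbered 1 with only the 2 genotypes compared, and 0 to 2 with each library left out in turn. The genes called in TD against TA ranged from 1422 to 3526, and were 1422, 1586 and 1432 without TA replicate 2, TD replicate 3 and TD replicate 4. The cause of these shifts was not tested.

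Replicate numbers did not pair the libraries. Of 12 correlations between libraries of the same number 2 were over 0.1, with a range of −0.24 to 0.20. With the replicate number as a block 1 member was called lower in TA against WT, since Cox18 was lost, Cox19 was called lower in TD against WT (−0.24), and Cox6b2 in TD against TA turned to 0.013.

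Marker scaling turned the log2 fold change in TD against WT to 0.10 for Cox6a2, 0.25 for Cox6b2, 0.34 for Cox15, 0.26 for Cox19, 0.19 for Sco1, 0.11 for Cox16, 0.24 for Cox18, 0.20 for Surf1 and 0.28 for Cox7a2l. Of these, Cox16 and Surf1 had been called lower, and Surf1 was then called higher. Against TA it gave 0.38 for Cox6a2, 0.45 for Cox6b2, 0.20 for Cox10, 0.36 for Cox15, 0.33 for Sco1, 0.29 for Surf1 and 0.33 for Cox7a2l. The other reversals were of values that were not called. Cox4i2 in TA against WT became −0.0015 with size factors of the RLE type, −0.0075 with library totals, −0.0080 without a filter and −0.0016 in DESeq2. In TD against TA, Cox6b2 became 0.040 with library totals and Sco2 −0.093 without TD replicates 3 and 4. With each library left out in turn, TA against WT ranged from −0.096 to 0.027 for Cox6b1, −0.13 to 0.019 for Cox7b, −0.12 to 0.063 for Cox7c, −0.11 to 0.12 for Cox4i2, −0.092 to 0.018 for Cox15, −0.0013 to 0.13 for Cox11 and −0.54 to 2.51 for Cox20. TD against TA ranged from −0.54 to 0.14 for Cox6a2, −0.26 to 0.45 for Cox6b2 and −0.16 to 0.30 for Sco2. The log2 ratio of Cox4i2 to Cox4i1 in TA against WT ranged from −0.00044 to 0.36.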
